A study of Mus musculus with 96 samples.

Results

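The transcripts of 9 heat shock and cold-inducible RNA-binding genes were followed through the day in mouse hepatocytes and liver macrophages. They were Hspa1a, Hspa1b, Hspa8, Hsp90aa1, Hsph1, Dnajb1, Hspe1, Cirbp and Rbm3, chosen by symbol from the 25095 genes of the deposited tables, and the transcript with the highest mean level stood for each gene. Total RNA sequencing had been done on 96 libraries, 48 of hepatocytes and 48 of liver macrophages, with 3 biological replicates for each genotype, cell type and zeitgeber time (ZT, hours after lights on). The times were ZT4 and ZT10 in the light phase and ZT16 and ZT22 in the dark phase.

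All mice were adult C57BL/6J males with floxed alleles, and all ate a high fat and sucrose diet for 4 weeks. Control mice received a virus that encodes GFP under the hepatocyte promoter TBG, and the other mice received the same type of virus encoding Cre. RevDKO (ReverbhDKO in the labels) denotes deletion of both Rev-erb genes, Nr1d1 and Nr1d2, in hepatocytes. RevScapTKO (Reverb/ScaphTKO) adds deletion of Scap, whose product escorts the lipid-regulating SREBP factors to activation, and ScapKO (ScaphKO) denotes deletion of Scap alone. The virus directed each deletion to hepatocytes, so the macrophages of these mice were not themselves the target. Values are RPKTM (10 times RPKM, that is reads scaled by transcript length and library total), which the authors quantile normalized in 4 tables, namely the first 3 genotypes of each cell type and ScapKO of each cell type. Levels were compared only within a table.

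Heat shock proteins are chaperones that help other proteins fold, and their genes are switched on by heat shock factors when temperature rises or proteins unfold. Cirbp and Rbm3 encode RNA-binding proteins whose transcripts rise with mild cooling. In liver, both groups are known to follow the daily cycle of body temperature even where the local clock is disabled, which makes them readouts of systemic signals.

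The labels and the purity of the libraries were checked before the members were compared. In hepatocytes Scap was lower in RevScapTKO than in RevDKO by a log2 difference of -1.40 (limma adjusted p = 9.77e-09), while Nr1d1 was higher in RevDKO than in Control (1.55, limma adjusted p = 8.87e-05) and Nr1d2 was not lower (0.62, adjusted p = 0.0626), so that RevDKO and RevScapTKO below mean the libraries so labelled. Arntl, which REV-ERBs repress, was higher in RevDKO (1.83, limma adjusted p = 1.6e-11). The hepatocyte libraries also held transcripts of macrophage markers, with a summed level over 8 genes from 208.6 to 2597 RPKTM in Control, from 321.6 to 2040 in RevDKO and from 826.9 to 5259 in RevScapTKO. The macrophage libraries held hepatocyte markers in turn, mostly Alb, with a summed level from 30010 to 1614540 RPKTM in the 3 genotypes and from 14411 to 109839 in ScapKO. Quantile normalization sets the value of Alb by its rank, up to 1606980 RPKTM in the 3 genotypes. The size of these sums therefore does not measure the amount of hepatocyte RNA. The highest of these sums belonged to Control at ZT22, replicate 1. The macrophage markers of the same libraries summed to between 2566 and 32898.5 RPKTM in the 3 genotypes, with the highest again in that library. In each library of the 3 genotypes this sum lay below that of the hepatocyte markers. It ran in RevDKO from 10736 to 25852 RPKTM at ZT4 and from 3281 to 6133 at ZT22. The macrophage results below are thus those of mixed libraries. The ScapKO libraries at ZT22, replicate 2 stood apart in both cell types. They held the highest Scap of their tables, 1006 RPKTM in hepatocytes and 1018 in macrophages, the hepatocyte library held the most macrophage marker transcripts (3042 RPKTM, against at most 1225 in the others) and the macrophage library the least (18699 RPKTM, against at least 75585).

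The sequences upstream of the members show where heat shock factors could bind and which members are near copies. Heat shock elements are built from the units GAA and TTC in alternation, and 2 such units (GAANNTTC or TTCNNGAA, both strands being equal for these palindromes) stood in 15.1% of 32851 RefSeq promoters, each from 250 bases before to 50 after a start site. The forms of 3 units (TTC, GAA and TTC, or GAA, TTC and GAA, each with NN between units) are each other's reverse complement and contain the shorter ones, and stood in 0.603%. Promoter entries existed for 6 of the 9 members, all but Hspa8, Hsp90aa1 and Rbm3. The stretches below, in build GRCm38.p6, carry the matches of the inducible Hspa1 pair and of Hspe1, from 150 to 51 bases before the start site, and the form of 3 units after the start site of Hsph1. Capitals mark the matched letters.
Hspa1b (chr17:34959289-34959388, minus strand): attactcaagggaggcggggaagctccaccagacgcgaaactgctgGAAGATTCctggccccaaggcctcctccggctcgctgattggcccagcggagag
Hspa1a (chr17:34972207-34972306, minus strand): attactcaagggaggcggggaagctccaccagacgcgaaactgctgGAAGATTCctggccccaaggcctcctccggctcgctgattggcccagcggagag
Hspe1 (chr1:55087998-55088097, plus strand): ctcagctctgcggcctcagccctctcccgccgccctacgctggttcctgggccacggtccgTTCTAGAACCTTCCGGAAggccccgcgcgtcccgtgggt
Hsph1 (chr5:149636287-149636308, minus strand): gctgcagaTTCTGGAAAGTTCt

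In Hspe1 the capitals join 2 forms of 3 units that overlap, whereas the Hspa1 stretch held 1 form of 2 units. No match was found in the windows of Dnajb1 and Cirbp, which says only that these letters are not in those windows. The stretches of Hspa1a and Hspa1b were the same in all 100 bases, and their whole promoter entries differed at 4 of 300 bases. Their coding sequences shared 82.3% (Hspa1a) and 82.2% (Hspa1b) of windows of 50 bases, so reads of one can be counted for the other, and the split of signal between them is uncertain.

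In build mm9, the build of the deposited values, Hspa1a (NM_010479) lies at chr17:35106304-35109101 and Hspa1b (NM_010478) at chr17:35093374-35096183, both on the minus strand. Hspa8 (NM_031165) lies at chr9:40609359-40613285, plus strand, and hosts the small nucleolar RNA genes Snord14c, Snord14d and Snord14e. Hsp90aa1 (NM_010480) lies at chr12:111929246-111934605, minus strand, and Hsph1 (NM_013559) at chr5:150419420-150438890, minus strand. Dnajb1 (NM_018808) lies at chr8:86132074-86136552, plus strand. Hspe1 (NM_008303) lies at chr1:55144992-55148161, plus strand, and overlaps its opposite-strand neighbour Hspd1 by 96 bases. Cirbp (NM_007705) lies at chr10:79630584-79634401, plus strand, and Rbm3 (NM_016809) at chrX:7716101-7723006, minus strand, where 303 bases overlap 2900002K06Rik on the other strand. Hspa1a overlaps Gm20481 on the other strand by 564 bases. These overlaps count exon bases of the partner within the whole span of the member, introns included. Whether counting used the strand was not stated, so reads of partners on the other strand may be shared where exons overlap.

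The order of levels, which are per length of transcript, was alike at both ends in all 4 tables. Hspa8, the constitutive HSP70, came first with 831.9 ± 409.2 RPKTM in hepatocytes of 3 genotypes (SD, n = 36). Hsp90aa1, the inducible cytosolic HSP90, followed with 244.2 ± 56.9 and Hsph1, an HSP110 that acts as exchange factor for HSP70, with 187.9 ± 80.0. Hspa8, Hsp90aa1 and Hsph1 were the top members in that order in each table, and the values of Hsp90aa1 and Hsph1 overlapped throughout. The middle held Hspe1 (92.2 ± 30.2 RPKTM), the mitochondrial cochaperonin, Rbm3 (62.8 ± 23.2), Dnajb1 (38.8 ± 12), an HSP40 partner of HSP70, and Cirbp (33.9 ± 13.0), whose ranges overlapped and whose order differed between tables.

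The stress-inducible HSP70 genes were lowest in every table. Hspa1b measured 11.2 ± 12.2 RPKTM and Hspa1a 1.57 ± 1.76 in hepatocytes of 3 genotypes (SD, n = 36), and 14.2 ± 10.2 and 9.77 ± 9.05 in the macrophages. Hspa1a did not pass the filter on low values in either hepatocyte table, which asked for more than 5 RPKTM in 3 libraries. Tests in hepatocytes therefore covered 8 of the 9 members, and those in macrophages all 9.

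Mean levels over the day were compared first, to ask how loss of the REV-ERBs and of SCAP in hepatocytes moved these genes. In hepatocytes Hspa8 and Rbm3 were higher and Hspe1 was lower in RevScapTKO than in RevDKO, while no member passed between RevDKO and Control. With Control as reference, RevScapTKO had higher Hspa8 and lower Hspe1 and Hspa1b. In macrophages 1 member passed in any genotype contrast, namely Hspa8, which was higher in RevScapTKO than in RevDKO.

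Hspa8 is transcribed at all times and its product clears clathrin coats and folds new proteins. In hepatocytes it ranged from 272.2 to 1383 RPKTM in Control (median 784.0, n = 12), from 194.7 to 2048 in RevDKO (median 545.8) and from 837.6 to 1513 in RevScapTKO (median 1037). All 12 RevScapTKO libraries lay above the median of both other genotypes, and 2 of 12 RevDKO and 6 of 12 Control libraries reached above the lowest RevScapTKO value. The RevDKO libraries that did so were 2 of the 3 at ZT16, with 2048 and 958.3 RPKTM. The mean level in RevScapTKO was 1.73 times that of RevDKO and 1.46 times that of Control. The log2 differences were 1.05 ± 0.23 (SE; limma adjusted p = 0.00102) and 0.68 ± 0.23 (limma adjusted p = 0.0197), and RevDKO minus Control was -0.37 ± 0.23 (limma adjusted p = 0.437). The genotypes were closest at ZT16, where Control measured 1162 ± 193, RevDKO 1192 ± 767 and RevScapTKO 1313 ± 317 RPKTM (SD, n = 3). At ZT22 Control measured 633.5 ± 316.3, RevDKO 394.6 ± 225.0 and RevScapTKO 1096 ± 150 RPKTM.

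The same gene in macrophages ranged from 95.1 to 527.1 RPKTM in Control (median 257.6, n = 12), from 75.5 to 492.1 in RevDKO (median 202.7) and from 226.4 to 592.0 in RevScapTKO (median 371.3). Again all 12 RevScapTKO libraries exceeded the RevDKO median, and 4 of 12 RevDKO libraries exceeded the lowest RevScapTKO value. The mean level was 1.82 times that of RevDKO. The log2 difference between RevScapTKO and RevDKO was 0.99 ± 0.23 (SE; limma adjusted p = 0.00848). It was 0.49 ± 0.23 against Control (limma adjusted p = 0.255) and -0.50 ± 0.23 for RevDKO minus Control (limma adjusted p = 0.321). The other 8 members passed in no macrophage contrast. Their log2 differences between RevScapTKO and RevDKO ran from -0.48 (Hspe1) over -0.31 (Hspa1a), -0.31 (Hspa1b), -0.13 (Rbm3), -0.07 (Hsp90aa1), 0.20 (Cirbp) and 0.25 (Hsph1) to 0.25 (Dnajb1). Both Hspa8 calls between RevScapTKO and RevDKO held without each library in turn, with 0.94 to 1.17 in hepatocytes and 0.88 to 1.09 in macrophages.

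Hspe1, which caps the HSP60 chamber in mitochondria, ranged in hepatocytes from 65.8 to 138.6 RPKTM in Control (median 108.9, n = 12), from 56.6 to 149.7 in RevDKO (median 105.1) and from 30.6 to 105.3 in RevScapTKO (median 66.5). No RevScapTKO library reached the Control median and 1 of 12 exceeded the RevDKO median. The log2 differences of RevScapTKO were -0.56 ± 0.16 (SE) from RevDKO (limma adjusted p = 0.00899) and -0.67 ± 0.16 from Control (limma adjusted p = 0.00128). In macrophages the difference from RevDKO was -0.48 ± 0.23 (limma adjusted p = 0.261), and whether the cell types differed was not tested.

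Rbm3, whose product favours translation in the cold, ranged in hepatocytes from 23.3 to 79.6 RPKTM in Control (median 55.5, n = 12), from 8.08 to 74.7 in RevDKO (median 56.5) and from 42.8 to 113.8 in RevScapTKO (median 84.1). In RevScapTKO 10 of 12 libraries exceeded both medians. The log2 difference from RevDKO was 0.79 ± 0.24 (SE; limma adjusted p = 0.0155), whereas that from Control, 0.57 ± 0.24, did not pass (limma adjusted p = 0.0612). A shorter transcript of Rbm3, NM_001166411, gave 0.58 from RevDKO in a fit of all transcripts (limma adjusted p = 0.0484). It has 1336 bases, against 2969 in NM_016809, the transcript used here. In Control hepatocytes it averaged 16.1 RPKTM and NM_016809 54.9, while in ScapKO hepatocytes the means were 40.2 and 48.2. The level given for Rbm3 thus depends on the transcript taken. In macrophages the Rbm3 difference was -0.13 ± 0.29 (SE). Cirbp, its relative, showed -0.28 ± 0.16 between RevScapTKO and RevDKO hepatocytes (limma adjusted p = 0.204), so the 2 cold-inducible genes had opposite signs there and only Rbm3 passed.

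Hspa1b was low and spread widely, from 1.26 to 40.6 RPKTM in Control hepatocytes (median 7.23, n = 12), from 2.33 to 46.1 in RevDKO (median 6.74) and from 1.1 to 18 in RevScapTKO (median 5.29). Its log2 difference between RevScapTKO and Control, -0.95 ± 0.37 (SE; limma adjusted p = 0.0453), was past the threshold in 19 of 36 fits that left out 1 library (-1.18 to -0.72, highest limma adjusted p 0.110). Those 19 included all 12 fits without a RevDKO library, which does not enter this difference. Each fit that lost the call left out a Control or RevScapTKO library. Against RevDKO the log2 difference of Hspa1b was -0.81 ± 0.37 (limma adjusted p = 0.104). The remaining members, Hsp90aa1, Hsph1, Dnajb1 and Cirbp, passed in no hepatocyte contrast, and their log2 differences lay between -0.28 and 0.20. Those of Hsp90aa1 were -0.03, -0.04 and -0.07, each with SE 0.12.

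**Figure D1:**
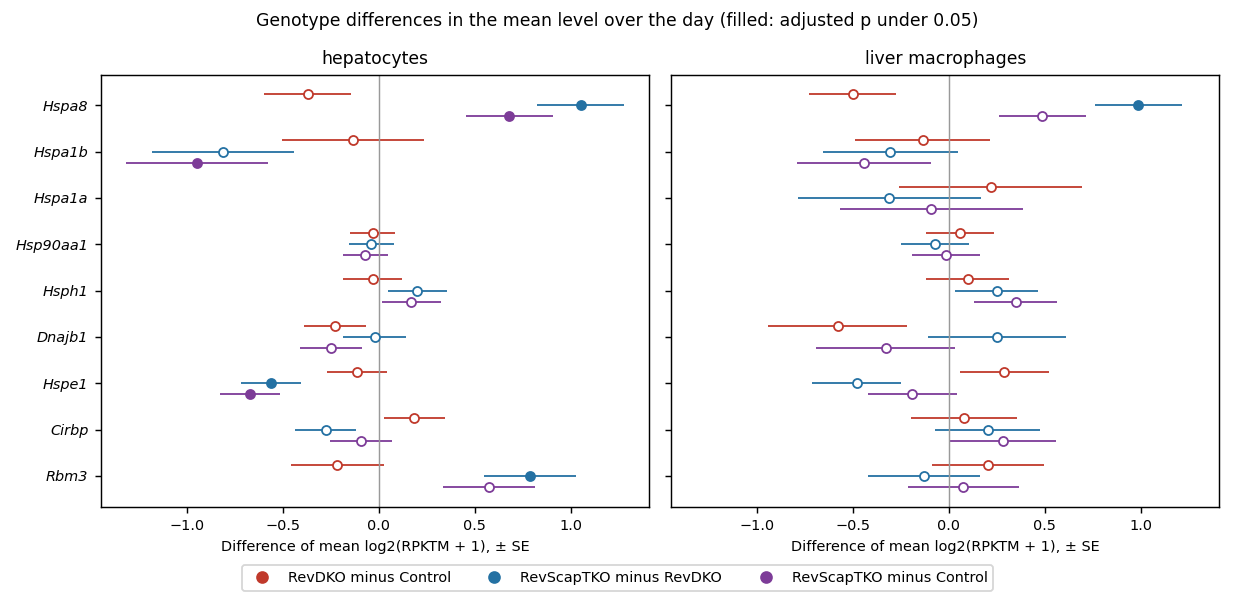
Difference of mean log2(RPKTM + 1) over the day for each member (rows) in hepatocytes (left) and liver macrophages (right), with the standard error as a bar and n = 12 libraries per genotype. Filled points had a limma adjusted p under 0.05: Hspa8 at 1.05 and 0.99 is the member filled in both cell types, while Hspe1, Rbm3 and Hspa1b are filled in hepatocytes alone, and Hspa1a was not tested in hepatocytes.

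These counts were read against all genes tested. In hepatocytes 0 of 8 members passed between RevDKO and Control in limma, where 4.43% of 13326 genes did, and 0 also had an unadjusted p under 0.05 (16.8% of genes). Between RevScapTKO and RevDKO 3 of 8 members passed against 26.2% of all genes (13.5% higher and 12.7% lower), and between RevScapTKO and Control 3 of 8 against 35.9%. Those shares do not set the members apart. In macrophages the member counts were 0 of 9 for RevDKO minus Control (0.574% of 13947 genes; 1 member, Hspa8, at an unadjusted p under 0.05, as 13.9% of genes), 1 of 9 for RevScapTKO minus RevDKO (3% of genes) and 0 of 9 for RevScapTKO minus Control (3.76% of genes; 1 member at an unadjusted p under 0.05 in limma, as 17.5% of genes). The median member difference was -0.03 between RevScapTKO and RevDKO hepatocytes, as it was over all genes.

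Markers of other cells moved with the hepatocyte results. All 8 macrophage markers were higher in RevScapTKO than in RevDKO hepatocyte libraries, with a median log2 difference of 1.07, as were 4 of 6 endothelial and 4 of 5 stellate cell markers. None of the 8 macrophage markers was at 0. In bulk libraries more cells of a type and more RNA per cell cannot be told apart. With the score of the macrophage markers as a covariate, Hspa8 differed by 1.36 between RevScapTKO and RevDKO (limma adjusted p = 0.0082) and by 1.01 from Control (limma adjusted p = 0.055). Rbm3 differed by 0.67 in that fit (limma adjusted p = 0.418) and Hspe1 by -0.07 (limma adjusted p = 0.929). The Hspe1 difference from Control fell to -0.16 (limma adjusted p = 0.72), so its call was lost with most of its size, and that of Hspa1b kept its size at -0.95 without passing (limma adjusted p = 0.354).

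For Hspa8 in macrophages the corresponding covariate, the score of hepatocyte markers, left 1.07 (limma adjusted p = 0.00287), and 1 of 8 hepatocyte markers was higher in RevScapTKO. Immediate early genes such as Egr1 and Atf3, which respond fast to stimulation and handling, were higher for 2 of 12 in that contrast (Egr1 by 1.97, limma adjusted p = 0.019, and Atf3 by 1.37, limma adjusted p = 0.0385). Their summed level ranged from 125.8 to 955.8 RPKTM in RevDKO and from 237.8 to 657.5 in RevScapTKO macrophage libraries. With their score as a covariate the macrophage difference of Hspa8 was 0.83 and did not pass (limma adjusted p = 0.136), whereas in hepatocytes it was 0.96 (limma adjusted p = 0.00484).

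Time of day was examined next, to ask whether these genes kept a daily course under each genotype. The 24 h pattern was tested in limma from the differences ZT16 minus ZT4 and ZT22 minus ZT10, and its size is given as the fitted distance from peak to trough in log2 units. In Control hepatocytes Hsph1 and Hspa1b passed, both with a fitted peak in the dark phase. The cold-inducible Cirbp ran the other way, with its lowest values at ZT16, but missed the threshold. No member passed in RevDKO, RevScapTKO or ScapKO hepatocytes, and none in macrophages of any genotype.

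Hsph1 in Control hepatocytes measured 141.6, 197.1 and 93.6 RPKTM at ZT4 and 89.6, 111.5 and 127.0 at ZT10. It rose to 185.0, 320.7 and 260.8 at ZT16 and stood at 187.0, 306.8 and 161.4 at ZT22. The ZT10 libraries lay below all those of ZT16 and ZT22, while ZT4 overlapped both. The pattern spanned 1.27 log2 units with a fitted peak at ZT 19.2 (limma adjusted p = 0.0218). The call was kept in 33 of 36 fits without 1 library and was lost without the Control library at ZT10 replicate 1, ZT16 replicate 2 or ZT22 replicate 2, with 1.09 to 1.46 over all of these fits (highest limma adjusted p 0.0664).

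Hspa1b measured 3.68, 6.88 and 5.24 RPKTM at ZT4 and 1.26, 7.57 and 4.81 at ZT10 in the same hepatocytes. At ZT16 it measured 24.6, 33.3 and 38.4, above every library of the light phase, and at ZT22 11.7, 40.6 and 2.36. The ZT22 libraries thus covered nearly the whole range of the gene. The span was 2.75 log2 units with a peak at ZT 17.9 (limma adjusted p = 0.0432), and 25 of 36 fits without 1 library kept the call (highest limma adjusted p 0.117). Most of these left out a library of another genotype, which changes only the shared spread. Of the Control libraries, each one but ZT10 replicate 2 and ZT22 replicate 3 was needed for the call.

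Cirbp, whose product binds the transcript of the clock gene Clock, measured 38.8, 39.6 and 49.4 RPKTM at ZT4 and 39.8, 30.0 and 34.7 at ZT10 in Control hepatocytes. The ZT16 libraries held 22.6, 20.9 and 18.9, below all libraries of the light phase, and those of ZT22 21.0, 35.7 and 35.0. Its span was 1.02 log2 units with a peak at ZT 4.8 (limma adjusted p = 0.0967). As measured by the transcript NM_016809, Rbm3 did not share this course. It held 42.3, 23.3 and 57.5 RPKTM at ZT4 and 79.6, 74.1 and 53.5 at ZT16, and its span of 0.82 did not pass (limma adjusted p = 0.523). The other Rbm3 transcripts had their highest mean at ZT10, as given below, so this difference from Cirbp depends on the transcript taken. Of the other members, Hsp90aa1 spanned 0.79 with a peak at ZT 21.8 (limma adjusted p = 0.0749), Hspa8 0.99 with a peak at ZT 16.4 (limma adjusted p = 0.336), Dnajb1 0.71 (limma adjusted p = 0.338) and Hspe1 0.27 (limma adjusted p = 0.855).

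**Figure D2:**
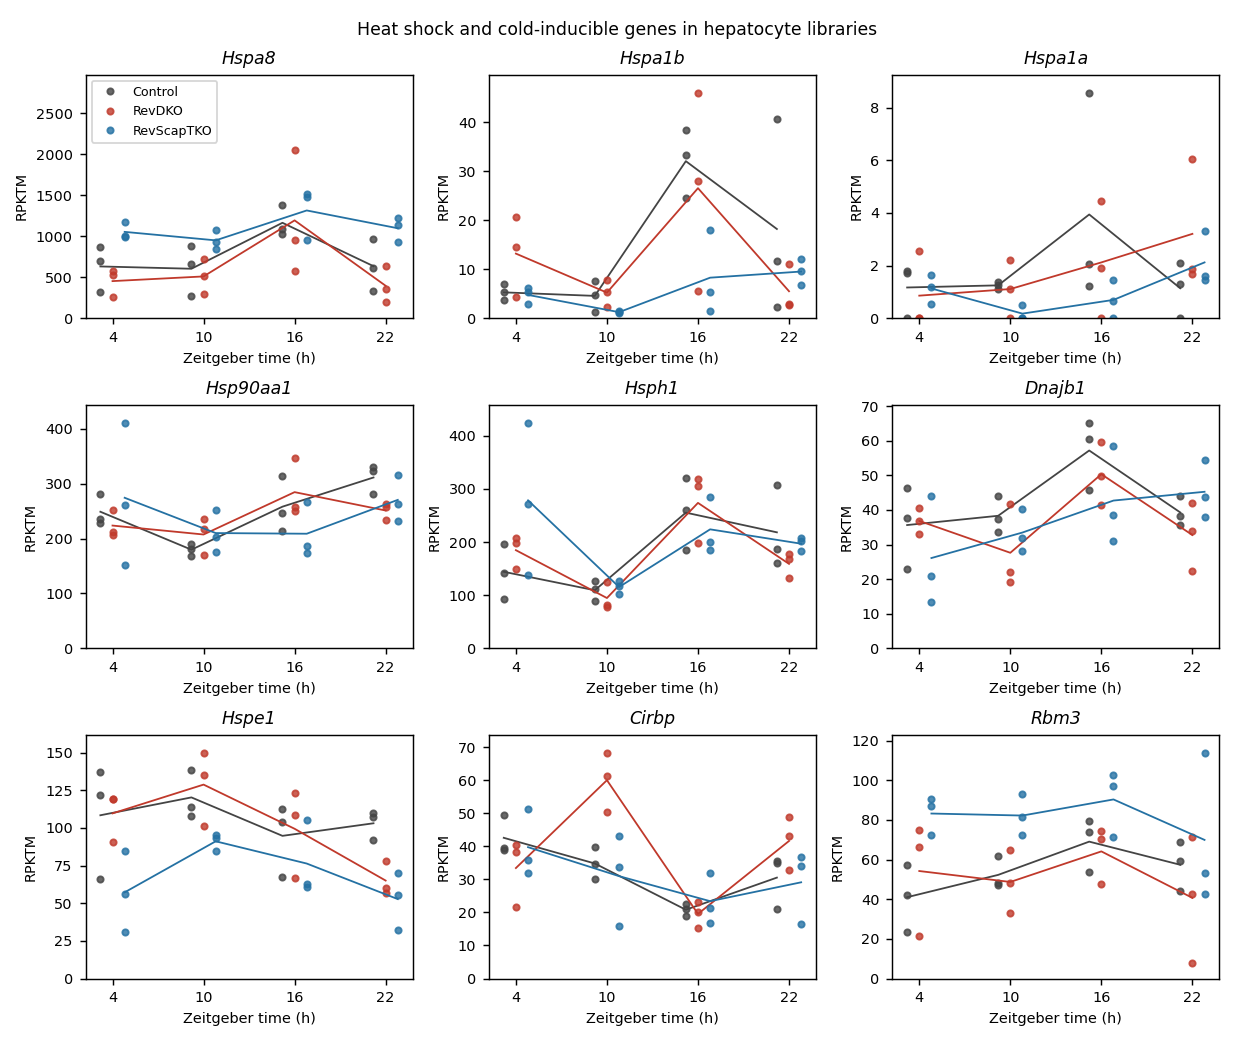
RPKTM (vertical axes from 0) against zeitgeber time for the 9 members in hepatocytes, with 1 point per library, 3 per genotype and time, shifted sideways by genotype, and lines through the means. Hspa8 in RevScapTKO stays between 837.6 and 1513, Hsph1 and Hspa1b in Control are highest at ZT16, and Cirbp is lowest there, between 18.9 and 22.6.

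The 2 of 8 members called in Control hepatocytes stood beside 8.29% of all genes with a called pattern. In RevDKO hepatocytes 0 of 8 passed (4.08% of genes), the same count in RevScapTKO (0.683%), and 0 of 8 for ScapKO (1.85% of 12724 genes). At an unadjusted p under 0.05 in limma the counts were 4 of 8 in RevDKO, beside 21.7% of genes, 4 of 8 in RevScapTKO, beside 18.3%, and 0 of 8 for ScapKO, beside 14.6%. JTK_CYCLE, the rank test of the study, called more when each series was entered 2 times as the study did: 5 of 8 in Control (23.3% of 25572 transcripts), 1 in RevDKO (22.8%), 1 in RevScapTKO (13.7%) and 0 in ScapKO (14.2%). The 5 in Control were Hspa8, Hsp90aa1, Hsph1, Cirbp and Rbm3. The Rbm3 call held for NM_016809 alone, with its highest mean at ZT16, while the other 4 Rbm3 transcripts were highest at ZT10 (exact JTK_CYCLE p from 0.527 to 0.809). In RevScapTKO and ScapKO hepatocytes, and in ScapKO macrophages, those 4 passed with the series entered 2 times and NM_016809 did not. With each series entered once the same rule called Hsp90aa1 (exact p = 0.013, multiplied by the 7 patterns tried) and Cirbp (exact p = 0.0239) in Control, where 4.31% of transcripts passed, and Hspa1b in RevScapTKO (exact p = 0.0239), where 1.32% did. It called 0 in RevDKO (3.61%) and 0 in ScapKO (2.57%).

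Macrophage markers moved with time in the same Control hepatocyte libraries. All 8 had a called 24 h pattern with a median span of 2.69, and their summed level was from 208.6 to 594.7 RPKTM at ZT4 and from 1918 to 2597 at ZT22. With their score as a covariate Hsph1 spanned 1.5 (limma adjusted p = 0.149) and Hspa1b 2.75 (limma adjusted p = 0.287), so neither span shrank and neither passed. With the immediate early genes as covariate the spans were 1.12 (limma adjusted p = 0.102) and 3.04 (limma adjusted p = 0.0781).

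A call in Control and none in RevDKO did not show that the courses differed. The test of a changed 24 h pattern between RevDKO and Control hepatocytes called 0 of 8 members (0.203% of genes; 0 members at an unadjusted p under 0.05 in limma, beside 4.91% of genes). Between RevScapTKO and RevDKO it called 0 of 8 (0% of genes; 0 members unadjusted in limma, beside 5.06% of genes). The changed patterns between RevDKO and Control spanned from 0.35 (Hsph1) to 2.14 (Hspa1b), with Dnajb1 at 0.36, Cirbp at 0.42, Hsp90aa1 at 0.58, Hspa8 at 0.61, Hspe1 at 0.75 and Rbm3 at 0.87. In simulated data the RevDKO and Control test recovered 2% of changes of 1 log2 unit and 57% of changes of 2 units. The absence of calls therefore does not show that the courses were alike. Cirbp in RevDKO measured 61.3, 68.3 and 50.5 RPKTM at ZT10 and 23.2, 20.2 and 15.3 at ZT16, without overlap between these times. Its ZT16 values overlapped those of Control, while its ZT10 values lay above all 3 of Control. Hsph1 in RevDKO measured 77.6, 82.3 and 124 at ZT10 and 305, 198 and 318 at ZT16, again without overlap.

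A test of any difference among the 4 times, which does not ask for a 24 h course, called in RevDKO hepatocytes Hsph1 (limma adjusted p = 0.0254) and Cirbp (limma adjusted p = 0.0248), where 2.48% of genes passed. In Control it called Hsph1 (limma adjusted p = 0.0341; 6.61% of genes), while Hspa1b missed (limma adjusted p = 0.0526). Without each library in turn, the RevDKO calls held in 32 of 36 fits for Hsph1 and 33 of 36 for Cirbp, and each fit that lost one left out a RevDKO library at ZT10 or ZT16 (highest limma adjusted p 0.0819 and 0.0942). Hspa1b in RevScapTKO measured 1.1, 1.20 and 1.36 RPKTM at ZT10 and 6.84, 12 and 9.71 at ZT22, a gap without overlap, yet its span of 2.23 did not pass (limma adjusted p = 0.190).

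In Control macrophages the heat shock genes with the clearest course were again Hsph1 and Hspa1b. Hsph1 measured 28.2, 24.3 and 15 RPKTM at ZT4 and 23.7, 15.5 and 31.0 at ZT10. It stood at 46.9, 76.7 and 80.0 at ZT16 and at 38.2, 94.5 and 81.7 at ZT22. All 6 dark-phase libraries lay above all 6 of the light phase, and the span of 2.18 log2 units with a peak at ZT 19.0 did not pass (limma adjusted p = 0.0503). Without the Control ZT22 replicate 1 library it was 2.47 (limma adjusted p = 0.00885), and without Control ZT16 replicate 1 it was 2.36 (limma adjusted p = 0.0397). The first of these libraries had the highest hepatocyte marker sum of the 36, nearly all of it Alb at 1606980 RPKTM. It also had the highest macrophage marker sum (32898.5 RPKTM). The second had a hepatocyte marker sum of 814294 RPKTM. After quantile normalization such sums follow the rank of Alb and do not measure how much hepatocyte RNA a library held. The macrophage markers of the second library, at 16578 RPKTM, stood above the 7951 and 6103 of the other Control ZT16 libraries. The Hsph1 pattern also passed without RevDKO ZT10 replicate 2 or ZT22 replicate 2 (limma adjusted p = 0.0464 and 0.0337), and over all 36 such fits the highest limma adjusted p was 0.206. Hspa1b measured 2.46, 6.34 and 8.51 at ZT4, 10.6, 9.26 and 5.67 at ZT10, 20.7, 28.0 and 24.8 at ZT16 and 34.2, 39.6 and 10.6 at ZT22. Its span was 2.50 with a peak at ZT 18.4 (limma adjusted p = 0.328).

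**Figure D3:**
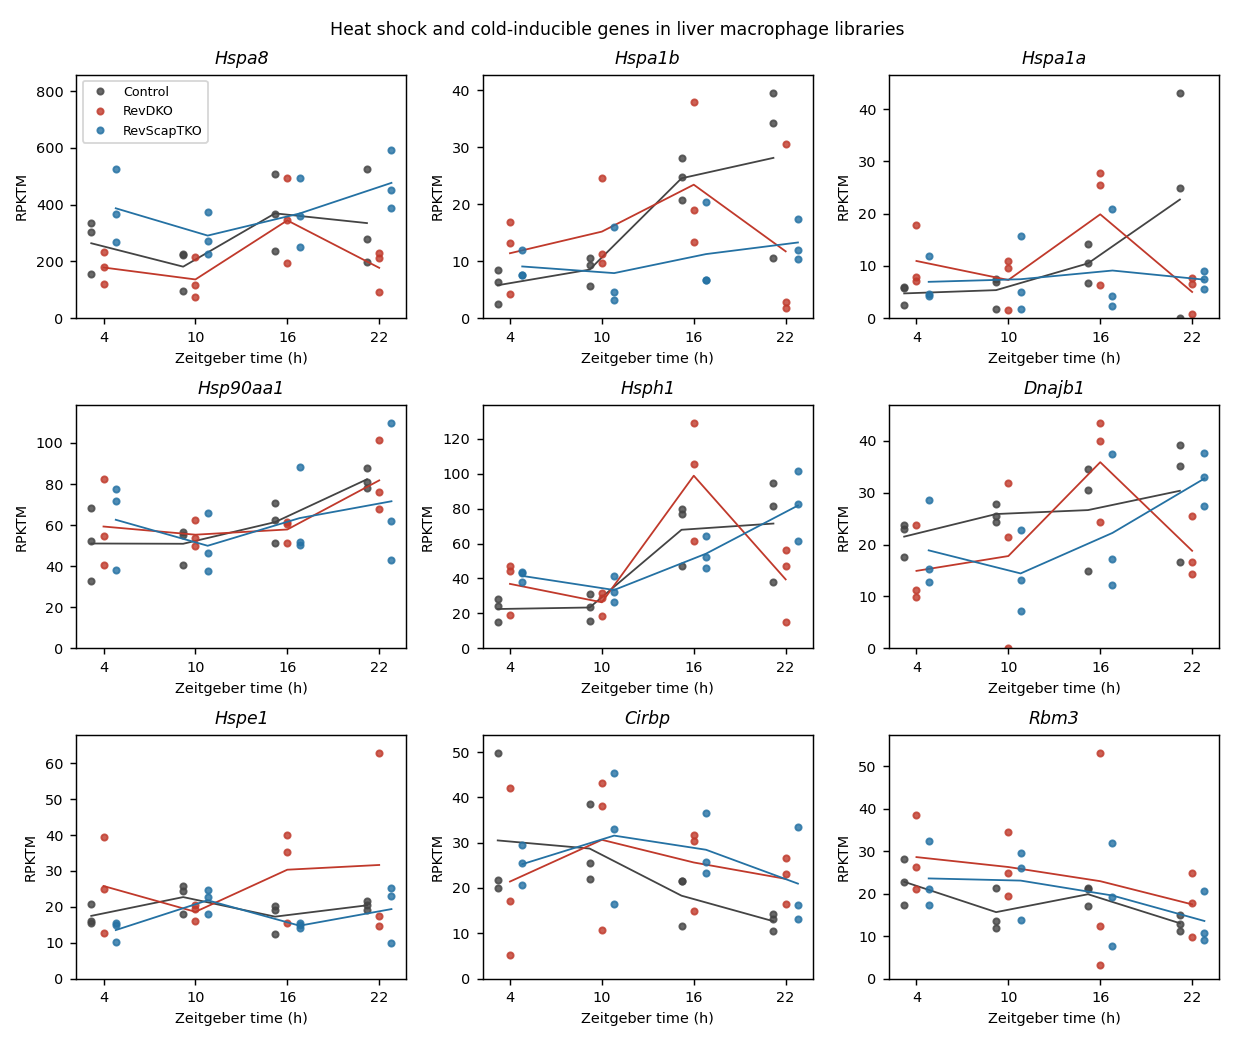
RPKTM (vertical axes from 0) against zeitgeber time for the 9 members in liver macrophages, with 1 point per library, 3 per genotype and time, shifted sideways by genotype, and lines through the means. In Control the Hsph1 points at ZT16 and ZT22, from 38.2 to 94.5, all lie above those at ZT4 and ZT10, from 15 to 31.0, and RevScapTKO has the highest Hspa8 mean at ZT4, ZT10 and ZT22.

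Few genes of any kind passed in macrophages. The pattern test called 0 of 9 members in Control (0.0502% of genes, or 7 genes), 0 of 9 in RevDKO (2.53%) and in RevScapTKO (0.0789%), and likewise 0 of 9 for ScapKO (0% of 13929 genes). At an unadjusted p under 0.05 in limma the counts were 2 of 9 in Control (7.99% of genes), 1 in RevDKO (18.8%), 1 in RevScapTKO (3.73%) and 2 in ScapKO (10.2%). JTK_CYCLE with the series entered 2 times called 4 members in Control (12.5% of transcripts), 1 in RevDKO (19.9%), 2 in RevScapTKO (9.86%) and 1 in ScapKO (14.4%). Entered once it called Hsph1 in RevScapTKO (exact p = 0.013; 0.848% of transcripts) and 0 members in Control (0.942%), RevDKO (1.5%) and ScapKO (1.85%). In RevDKO macrophages the test of any difference among the 4 times called Hsph1 (limma adjusted p = 0.0419; 2.82% of genes), with 129, 106 and 61.6 RPKTM at ZT16 and at most 56.3 at the other times, a call kept in 25 of 36 fits without 1 library (highest limma adjusted p 0.171). A changed pattern was called for 0 of 9 members in both genotype contrasts (0% of genes; 1 and 0 members unadjusted in limma, beside 5.5% and 3.57% of genes). The unadjusted one was Hspa1b between RevDKO and Control (unadjusted p = 0.0314, limma adjusted p = 0.891). In simulated macrophage data that contrast recovered 0% of changed patterns of 1 log2 unit and 5% of those of 2 units, so changes of these sizes would mostly be missed.

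In ScapKO mice Hsph1 and Hspa8 had high values at ZT4 and ZT16 and low values at ZT10 and ZT22, in both cell types, and Hsph1 in hepatocytes passed a test. Hsph1 in ScapKO hepatocytes measured 459, 353.6 and 687.1 RPKTM at ZT4 and 427.6, 398.3 and 463.1 at ZT16. It measured 195.8, 222.4 and 238.2 at ZT10 and 271.8, 174.9 and 313.9 at ZT22. All 6 libraries of ZT4 and ZT16 lay above all 6 of ZT10 and ZT22. The test of any difference among the 4 times called it (limma adjusted p = 0.046; 1.3% of genes). Without the ZT22 replicate 2 library that stood apart, the adjusted p was 0.0081, but the call was kept in only 4 of 12 fits without 1 library (highest limma adjusted p 0.147). In ScapKO macrophages Hsph1 measured 274 to 513 RPKTM at ZT4 and 223 to 394 at ZT16, against 125 to 168 at ZT10 and 125 to 235 at ZT22, and passed in 0 of 12 such fits (lowest limma adjusted p 0.0878). The summed level of the immediate early genes in ScapKO hepatocytes did not follow this order, with 1539 to 2660 RPKTM at ZT4, 1329 to 1993 at ZT10, 2510 to 3177 at ZT16 and 2337 to 3104 at ZT22.

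Hspa8 followed the same order of times in ScapKO hepatocytes, with 2385, 3071 and 5293 RPKTM at ZT4, 1973, 2279 and 1942 at ZT10, 2795, 3167 and 4136 at ZT16 and 2480, 2003 and 1941 at ZT22. In ScapKO macrophages Hspa8 measured 2432, 2648 and 2922 at ZT4 and 2480, 2703 and 2592 at ZT16, above the 1754, 2034 and 2039 of ZT10 and the 1820, 1184 and 2110 of ZT22. Neither passed, with a limma adjusted p from 0.114 to 0.424 in hepatocytes and from 0.182 to 0.818 in macrophages over the 12 fits of any difference without 1 library. In these tables the third replicate at ZT4 and ZT16 held by far the most Hspa1b. It measured 137.4 and 101.8 RPKTM in hepatocytes, where the other 10 libraries reached at most 27.1, and 189.4 and 102.8 in macrophages, where the others reached at most 45.0.

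**Figure D4:**
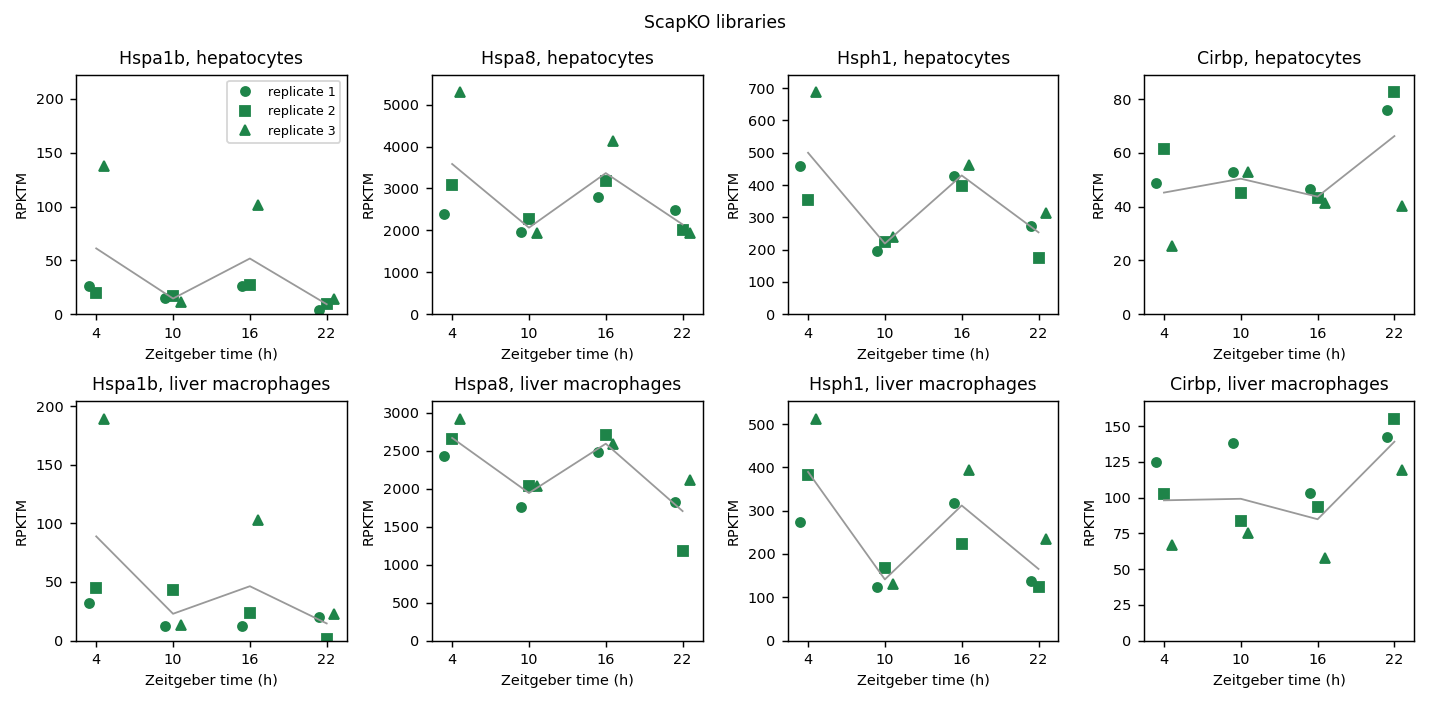
RPKTM (vertical axes from 0) against zeitgeber time for 4 members in ScapKO hepatocytes (top) and ScapKO liver macrophages (bottom), with 1 point per library, the marker giving the replicate number (with a sideways shift) and lines through the means of 3. Hsph1 and Hspa8 means are high at ZT4 and ZT16 and low at ZT10 and ZT22 in both cell types, and replicate 3 at ZT4 and ZT16 stands above the rest for Hspa1b.

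Hspa8 also varied between libraries of the same group, and it did so alike in both cell types. For each library of the 3 genotypes the deviation of log2(RPKTM + 1) from the mean of its group was set beside that of the library of the other cell type with the same genotype, time and replicate number. Over 36 such pairs the deviations of Hspa8 had a Pearson r of 0.828 and a Spearman rho of 0.844, and r was 0.794 without the 2 farthest pairs. It ranked 14 of 12640 genes, whose median r was 0.0978. Hspa1b followed with 0.505, Hsp90aa1 with 0.338, Dnajb1 with 0.321 and Hsph1 with 0.307. Hspe1 showed 0.152, Hspa1a 0.124, Cirbp 0.047 and Rbm3 -0.31. In ScapKO, over 12 pairs, Hspa8 had the lowest value, 0.310, and Hsp90aa1 the highest, 0.840, among the 9 members. The labels do not say whether libraries that share a number come from 1 animal, and each cell type's libraries held transcripts of the other, so these values are descriptions without a test.

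**Figure D5:**
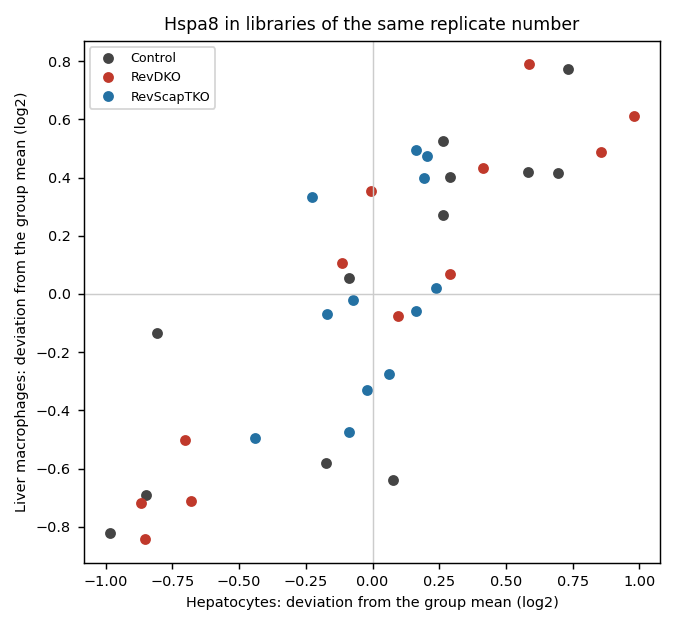
Deviation of Hspa8 from the mean of its group of 3, in log2 units, in hepatocyte libraries (horizontal) against the liver macrophage library with the same genotype, time and replicate number (vertical), with 1 point for each of 36 pairs and colours for the genotypes. The points rise together, with a Pearson r of 0.828.

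Within a cell type, members differed in which genes they resembled over the 36 libraries of 3 genotypes. By Pearson r of log2(RPKTM + 1), the hepatocyte genes most like Hspa8 outside the members were Slc35c1 (0.66), Kcnab1 (0.65), Adap2, Nupl1 and Pfkfb3 (0.64 each). In macrophages its closest gene was Hsp90ab1, the constitutive HSP90, with 0.66, followed by Gdf10 (0.61), Tmem104 (0.57), Postn and Slfn9 (0.56 each). Cirbp was most like Zc3h6 (0.68), Zbtb48 (0.68), Mir22hg (0.67), 1810019D21Rik (0.65) and 1110038F14Rik (0.63) in hepatocytes, and Rrp9 (0.72), Cep89 (0.68), Ppp1r35 (0.66), BC048644 (0.66) and Klf1 (0.66) in macrophages. Among the members, Cirbp in hepatocytes had -0.56 with Dnajb1, -0.46 with Hsph1, -0.46 with Hspa8, -0.40 with Hspa1b, -0.19 with Hsp90aa1, -0.19 with Rbm3 and 0.05 with Hspe1. In macrophages its values with the other members ran from -0.51 (Hsp90aa1) to 0.08 (Dnajb1). Hspa8 and Hsph1 had 0.43 in hepatocytes. Genotype and time enter these correlations, which are descriptions over libraries.

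The wider chaperone network was counted in lists. Between RevScapTKO and Control hepatocytes, where 17.3% of all genes were higher and 18.7% lower, 5 of 8 genes of HSP90 and its co-chaperones were lower and none higher, with Fkbp4 at -0.71, Cdc37 at -0.48, Ahsa1 at -0.38 and Stip1 at -0.36 in log2 difference. Other HSP70 genes were lower for 1 of 6 (Hspa2 at -1.92) and other HSP40 genes for 1 of 7 (Dnajb2 at -0.90), and none of either was higher. Chaperonins were lower for 4 of 9, among them Cct6a at -0.37, Hspd1, the partner of Hspe1, at -0.32 and Cct5 at -0.29, while Tcp1 was higher at 0.23. Small heat shock proteins and BAG factors were lower for 3 of 6, with Hspb1 at -1.21, Hspbp1 at -0.52 and Hspb8 at -0.42. Genes of splicing and RNA binding were higher for 7 of 11, among them the temperature-responsive kinase Clk1 at 0.40, Clk4 at 0.38, Tra2a at 0.33 and Tra2b at 0.29, and none was lower. The list medians were -0.02 for other HSP70 genes, -0.07 for other HSP40 genes, -0.30 for HSP90, -0.17 for chaperonins, -0.47 for small heat shock proteins and 0.27 for splicing genes, beside -0.04 for all genes. Macrophage markers were higher in this contrast too, all 8 with a median of 1.2.

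Between RevScapTKO and RevDKO hepatocytes, where 26.2% of all genes passed, the calls were 3 of 8 for HSP90 and co-chaperones (Fkbp4 at -0.37, Ahsa1 at -0.28, Hsp90ab1 at 0.20), 2 of 7 other HSP40 genes (Dnajb2 at -0.84, Dnaja3 at -0.24), 1 of 6 other HSP70 genes (Hspa2 at -1.20) and 1 of 11 splicing genes (Clk2 at 0.47). Chaperonins and small heat shock proteins had 0 of 9 and 0 of 6 (4 and 1 at an unadjusted p under 0.05 in limma, as 38% of all genes), and the heat shock factors and regulators Hsf1, Hsf2 and Hsbp1 had 0 of 3 in this and the other hepatocyte contrasts (0 unadjusted in limma). Between RevDKO and Control hepatocytes Hspa2, at -0.73, was the chaperone called among these lists (limma adjusted p = 0.0449). In macrophages, where 0.574% of all genes passed between RevDKO and Control, 3% between RevScapTKO and RevDKO and 3.76% between RevScapTKO and Control, no gene of the chaperone lists passed in a contrast of mean level by limma, and at most 3 genes of a list had an unadjusted p under 0.05.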

How the data were processed

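The study's methods state that RNA was depleted of ribosomal RNA, made into stranded libraries, aligned to mm9 with STAR and counted over RefSeq transcripts with HOMER; versions, and whether counting used the strand, are not given in the sources used here. The authors deposited RPKTM, an RPKM scaled by 10, quantile normalized in each of 4 tables. Every library of a table holds the same set of values, so depth is unknown, a shift of most transcripts would be hidden, and precision rests on the 3 replicates. ScapKO hepatocyte libraries were placed by their titles, since their cell type field names liver macrophages. In 2 of the tables some header names carry numbers that were not used.

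Here log2(RPKTM + 1) was fitted with limma 3.58.1 (R 4.3.3, mean-variance trend, 1 mean per genotype and time) over genes with more than 5 RPKTM in at least 3 libraries, that is 13326 and 13947 genes in hepatocytes and macrophages of 3 genotypes and 12724 and 13930 in ScapKO (of the last, 13929 were tested). Log2 differences are on this scale, where changes of genes near 1 RPKTM come out too small. Adjusted p-values are Benjamini-Hochberg over all genes, threshold 0.05. The scripts were tested on simulated data: of 200 genes changed by 1 log2 unit between RevScapTKO and RevDKO, 85.5% were recovered in hepatocytes (13326 genes) and 41.5% in macrophages (13947 genes), and of 200 with a 24 h pattern of 2 log2 units in Control, 81.5% and 34%. JTK_CYCLE was written anew in Python 3.11.15 and run with each series entered 2 times, after the study, and once. The rule for named genes took the 9 members, of each other list at most 4 called genes per comparison, those with the smallest adjusted p, and the 5 genes most like Hspa8 and Cirbp; members not given by value in a comparison are in its counts and plots. The members and lists were chosen with earlier results of these data known. Alternatives were other pseudocounts (0.1 and 10), no filter, all transcripts, a replicate block, marker scores as covariates, only the genotypes compared and leaving out each library; the fits of other transcripts and of any difference without 1 library were added after seeing the data.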

Additional observations from a re-analysis of the deposited data

How the results depend on the processing

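No difference in mean level changed its sign to a called value of the other direction. The span of a pattern has no sign, and whether peak times moved was not checked. Of 6547 single-gene values under an alternative, 6452 were called or not called as in the main fit, 45 gained a call and 50 lost one. Most of these values belonged to results without a call in the main fit, so the share that stayed the same does not measure how stable the calls were. The number of members with a called 24 h pattern in Control hepatocytes, 2, became 1 with a pseudocount of 0.1, 1 without the filter, 0 with the macrophage marker score, 0 with the immediate early gene score, 1 for any difference among the times and 5 by JTK_CYCLE entered 2 times, and lay between 0 and 3 without 1 library. With the macrophage marker score the 3 members called between RevScapTKO and RevDKO hepatocytes became 1 and the 3 between RevScapTKO and Control became 0; without 1 library they were 3 to 4 and 2 to 4. In hepatocytes the pattern counts of 0 became 2 (any difference) and 1 (JTK_CYCLE 2 times) in RevDKO, 1 (JTK_CYCLE 2 times), 1 (once) and 0 to 2 (without 1 library) in RevScapTKO, where Dnajb1 (1.32, limma adjusted p = 0.0275) and Hspe1 (1.17, limma adjusted p = 0.044) passed without the ZT4 replicate 1 library, and 1 (any difference) in ScapKO. In macrophages the 1 member called between RevScapTKO and RevDKO became 0 with the immediate early gene score. The macrophage pattern counts of 0 became 1 with a pseudocount of 10, 1 with the hepatocyte marker score, 4 by JTK_CYCLE 2 times and 0 to 1 without 1 library in Control, 1 for any difference and 1 by JTK_CYCLE 2 times in RevDKO, 2 by JTK_CYCLE 2 times and 1 once in RevScapTKO, and 1 by JTK_CYCLE 2 times in ScapKO. JTK_CYCLE entered 2 times counts each library again; for the other settings the cause was not tested. Deviations of same-numbered libraries of different genotypes at 1 time had a median r of 0.0484 in hepatocytes and 0.0877 in macrophages (above 0.1 in 13 and 15 of 36 pairs). For differently numbered libraries the median r was -0.0290 and -0.0460. Whether the numbers pair libraries was not tested. With the replicate block 151 of 153 single-gene values kept their call; Rbm3 between RevScapTKO and Control hepatocytes (limma adjusted p = 0.0259) and Hsph1 in Control macrophages (limma adjusted p = 0.0347) passed, which made the macrophage Control count 1. Depth is unknown, and in simulated macrophage data most changes of 1 log2 unit were missed.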
